A study of Mus musculus with 20 samples.

Results

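miR-204-5p (mmu-miR-204-5p in the files) is 1 of the 1881 mature mouse microRNAs on the array. MicroRNAs (miRNAs) are short RNAs that pair with messenger RNAs and hold down their output. This miRNA was taken by its exact name in the scanner files of all 20 arrays. It was chosen for its levels on these same arrays, so those levels are given as a description with no test. The tissue was the ascending aorta bearing atherosclerotic lesion of male mice whose genotype the labels give as double knockout Apobtm2Sgy/Ldltm1Her. Every group carried both alleles, so no group has an unaltered lipoprotein background. A high fat diet was sampled at weeks 6, 18 and 30 with 3 arrays a week, and a chow diet at the same weeks with 3 arrays a week and at week 0 with 2. Weeks are weeks on the diet, the labels give the same numbers as the age, and the composition of the high fat diet is not given in the sources used here. Each array holds total RNA of 1 sample in 1 colour, and the labels do not say whether samples are single animals or pools.

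The seed of a miRNA, bases 2 to 8 from its 5′ end, does most of the pairing with its targets. miR-204-5p and miR-211-5p form a family with a common seed, each made from a hairpin inside a gene of the TRPM channel family, Trpm3 for miR-204 and Trpm1 for miR-211. miR-204-5p is known to repress Runx2, the transcription factor that drives bone formation, and in vascular smooth muscle cells it is known as a brake on Runx2-driven calcification. It is best known for high expression in retinal pigment epithelium and choroid plexus.

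The mature arms and the miR-204 hairpin are shown because the family members are separated on the array by a single base. The seed is in capitals in the mature arms, and the mature arms are in capitals in the hairpin. All are RefSeq sequences of GRCm38.p6.
miR-204-5p: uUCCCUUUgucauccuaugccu
miR-211-5p: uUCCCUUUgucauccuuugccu
miR-204-3p: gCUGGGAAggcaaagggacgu
miR-211-3p: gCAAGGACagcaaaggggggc
Mir204: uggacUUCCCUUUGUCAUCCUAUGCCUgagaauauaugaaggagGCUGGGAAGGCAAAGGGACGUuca

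The substitution between miR-204-5p and miR-211-5p is A17U, counted from 1 at the 5′ end of miR-204-5p. It lies outside the seed UCCCUUU. Of the 1738 mature mouse miRNAs in the RefSeq table, 3 have this seed: these 2 and miR-7670-3p, which was detected on 0 of the 20 arrays.

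Each miR-204-5p value rests on 2 probes of 15 spots each, shown beside the miR-211-5p probe of the same length. The base that faces position 17 of the miRNA is in capitals. Probes are written 5′ to 3′ as the array files give them.
A_54_P2396, miR-204-5p, longer probe: aggcaTaggatgacaaaggg
A_54_P2397, miR-204-5p, shorter probe: aggcaTaggatgacaaagg
A_54_P1467, miR-211-5p: aggcaAaggatgacaaaggg

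The longer probe pairs with bases 3 to 22 of miR-204-5p and the shorter with bases 4 to 22. The files place them at chr19:22825103-22825121 and chr19:22825104-22825121 of mouse build mm9, with no strand given and 1 base less than the probe's length. The gene table of GRCm38.p6 has Mir204 within the span of Trpm3 on chromosome 19. Both probes cover nearly the whole miRNA, and a signal from miR-211-5p on a miR-204-5p probe, or the reverse, was not measured here.

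The arrays differ in ways that touch the week 30 comparison. Between 316 and 742 miRNAs were detected per array, and the 4 arrays with the fewest (316 to 355, against at least 412 on the others) were replicate 3 of both week 6 high fat and week 18 high fat, replicate 1 of week 30 high fat and replicate 1 of week 18 chow. The arrays lay on 3 slides, each with its own scan. The week 30 high fat arrays shared slide 3 with week 18 high fat replicate 3 alone, and the week 30 chow arrays were on slide 2, so diet and slide cannot be told apart at week 30. Weeks 0 and 6 were on slide 1, so week 30 and week 6 cannot be told apart from slide either. Replicates 2 and 3 of week 30 high fat were nearly the same over the 192 miRNAs present on all 20 arrays (the log2 differences had an SD of 0.18). Replicate 3 of week 18 high fat was as close to replicate 2 of week 30 high fat (0.19), although their group labels differ. Whether any such pair holds repeat measurements of 1 RNA was not tested. Week 6 chow replicates 1 and 2 were also close (0.28). The median over pairs within a group and a slide was 0.95. The slide positions in the file and in the description disagree for 8 arrays. By the described position, 2 of them, replicate 1 of week 18 high fat and replicate 1 of week 18 chow, would switch diet, and no week 30 array would change group.

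miR-204-5p was lowest in the week 30 high fat aortas and ran from 5.09 to 6.32 on the arrays of the other groups. A level here is the log2 of the processed spot signal after each array was scaled to its own 75th percentile. The 3 week 30 high fat arrays had levels of 4.8, 4.91 and 4.77, against 5.76, 6.14 and 5.35 on the week 30 chow arrays. The high fat arrays lay together and the groups did not overlap. Replicates 2 and 3 of week 30 high fat were so alike over all miRNAs that they may be repeat measurements of 1 RNA. The SD of this group may then be too small and its number of samples 2 rather than 3, and with the pair averaged the difference given next was -0.93. The means were 4.83 ± 0.07 in high fat and 5.75 ± 0.40 in chow (SD, n = 3 each), a log2 difference of -0.92, which is a signal 0.528 times that of chow. Fewer cells that carry miR-204-5p and less of it per cell cannot be told apart in whole tissue.

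At the earlier weeks the diets overlapped. At week 18 the levels were 5.38, 5.87 and 6.32 in high fat and 5.33, 5.77 and 5.61 in chow. The highest level of the series was that of week 18 high fat replicate 3. The difference was 0.28 with this array and 0.05 without it, and 0.25 when the diets were taken from the described slide positions. At week 6 the levels were 5.09, 5.45 and 5.83 in high fat and 5.63, 5.64 and 5.37 in chow, a difference of -0.09 with chow inside the high fat range. The week 0 chow arrays stood at 5.73 and 5.48, in the range of the later chow arrays.

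**Figure D1:**
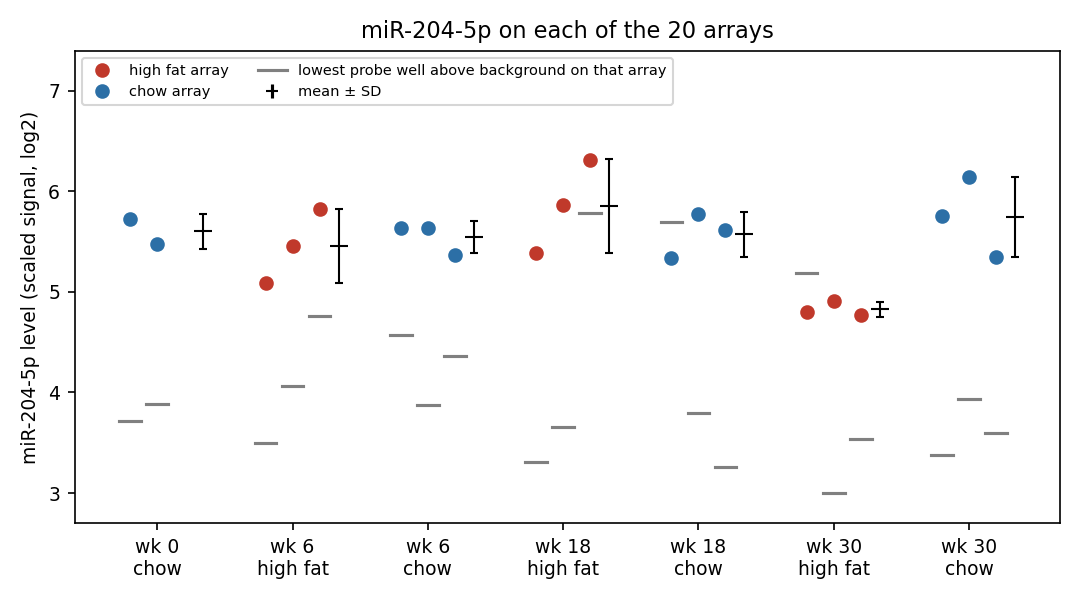
Level of miR-204-5p (scaled signal, log2) on each of the 20 arrays by group, with high fat in red and chow in blue, the mean ± SD of each group in black, and a grey tick at the lowest probe signal well above background on that array. The 3 week 30 high fat arrays (4.77 to 4.91) lie below the other 17 (5.09 to 6.32), and on 1 of them, as on week 18 chow replicate 1, the point lies below the grey tick.

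Over time, the high fat mean of miR-204-5p was lowest at week 30, and its course from week 6 to week 18 is not settled. The mean was 5.46 ± 0.37 at week 6, 5.86 ± 0.47 at week 18 and 4.83 ± 0.07 at week 30 (SD, n = 3 each). Week 30 was lower than week 18 by a log2 difference of -1.03 and lower than week 6 by -0.63, and overlapped neither. The week 18 mean includes replicate 3 (6.32), the array with the noisiest control spots. Week 18 high fat replicates 1 and 2 (5.38 and 5.87) were also above week 30. They lay on slide 2 and week 30 high fat on slide 3, so week and slide cannot be told apart there. Week 18 exceeded week 6 by 0.40, with overlap, and by 0.17 without week 18 high fat replicate 3. In chow the mean was 5.60 ± 0.17 at week 0 (SD, n = 2), 5.55 ± 0.15 at week 6, 5.57 ± 0.22 at week 18 and 5.75 ± 0.40 at week 30 (SD, n = 3 each). Chow stayed within 0.20 between weeks 6 and 30, with overlapping arrays at each step.

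Ordered by mean level, the groups ran from week 18 high fat (5.86) through week 30 chow (5.75), the chow groups of week 0 (5.60), week 18 (5.57) and week 6 (5.55), and then week 6 high fat (5.46), to week 30 high fat (4.83). Neighbours down to week 6 high fat were 0.03 to 0.14 apart, less than the pooled within-group SD of 0.31, and their arrays overlapped. The last step, from week 6 high fat to week 30 high fat, was 0.63, and there the arrays did not overlap. The margin is small for single arrays: the highest week 30 high fat array was 4.91 and the lowest of the other 17 arrays was 5.09, week 6 high fat replicate 1.

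Set against the whole array, the week 30 difference of miR-204-5p was not extreme in size. It ranked 166 from the lowest of 609 tested miRNAs, whose median difference at week 30 was -0.13. All 3 week 30 high fat arrays were below the 3 week 30 chow arrays for 156 of the 609 (25.6%), miR-204-5p among them, and above them for 174 (28.6%). They were below all 17 other arrays for 6 of the 609 (0.985%). These were miR-98-5p, miR-204-5p, miR-199b-5p, let-7f-5p, miR-350-3p and miR-223-3p, with gaps of 0.26, 0.18, 0.11, 0.11, 0.02 and 0.002 between the highest week 30 high fat array and the lowest other array. The other 5 names were read off after their values were seen. They were above all 17 other arrays for another 6 (0.985%). The choice of miR-204-5p used this contrast, so its place among the 6 is a description.

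At weeks 6 and 18 its diet difference stood in the middle of the array, at ranks 309 and 315 of 609 with medians of all miRNAs of -0.11 and 0.27. From week 6 to week 30 it ranked 265 in high fat, where the median of all was -0.40, and 410 in chow, where it was -0.21. Relative to these general shifts, the week 30 diet difference and the high fat change from week 6 were -0.92 against -0.13 and -0.63 against -0.40.

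miR-204-5p is dim on these arrays. It was detected on all 20, but its mean level was rank 185 of the 192 miRNAs present on all of them, and its rank on single arrays ran from 147 to 192. On the week 30 high fat arrays it was rank 190, 191 and 192, and on the week 30 chow arrays rank 171, 161 and 182. Its level on week 30 high fat replicate 1, 4.8, was below the dimmest signal scored well above background there (5.19), which can happen because the level averages both probes.

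The unscaled signals show which array carries how much of this. The longer probe read 14.9 ± 2.05, 82.8 ± 5.56 and 48.4 ± 4.49 on the week 30 high fat arrays (mean ± SD over 14 or 15 spots). It read 129 ± 9.16, 114 ± 6.71 and 89.3 ± 4.37 on the week 30 chow arrays. The high fat readings were all lower than the chow readings before any scaling, but they differed more among themselves, in the order of the arrays' own brightness. The 75th percentiles used for scaling were 7.99, 10.42 and 9.83 on the log2 scale in high fat and 10.30, 9.82 and 10.15 in chow.

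The shorter probe read 3.25 ± 1.87, 23.7 ± 2.88 and 15.6 ± 3.35 on the week 30 high fat arrays and 47.5 ± 3.60, 50.9 ± 4.32 and 30.1 ± 2.95 on the week 30 chow arrays. In high fat 0%, 100% and 60% of its spots were well above background, and in chow all were. After scaling, both probes put every week 30 high fat array below the other 17 arrays, with week 30 diet differences of -0.80 for the longer and -1.29 for the shorter probe. Both probes placed week 30 high fat lowest, with differences of unlike size.

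**Figure D2:**
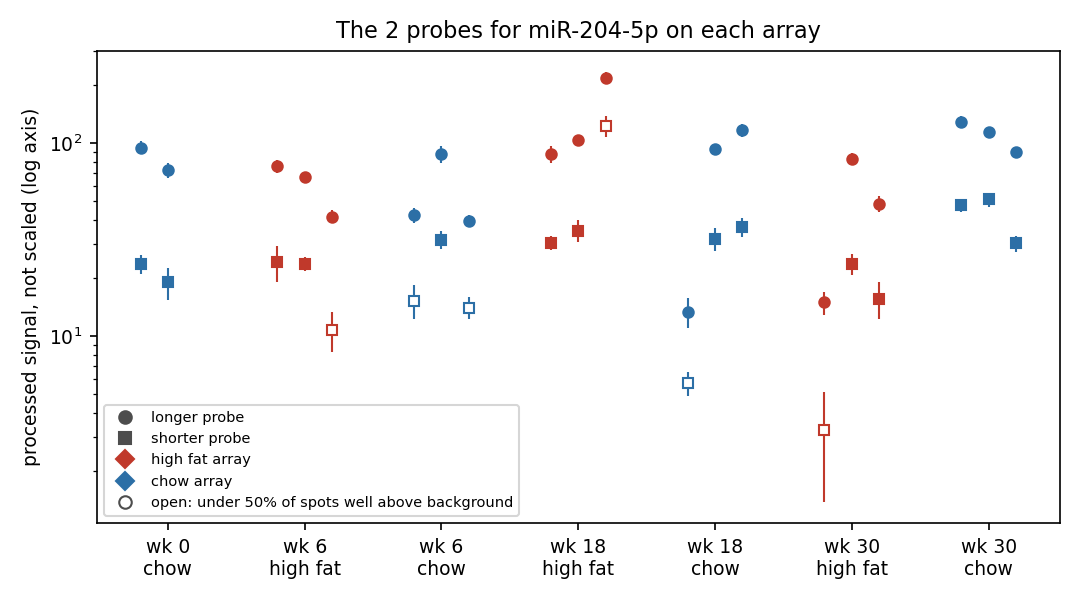
Processed signal of the longer (circles) and shorter (squares) miR-204-5p probe on each array, not scaled between arrays and on a log axis, with high fat in red and chow in blue and the SD over spots as bars. Open symbols mark probes with under 50% of spots well above background, among them the shorter probe on week 30 high fat replicate 1 (3.25) and week 18 chow replicate 1 (5.71).

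The array that gave miR-204-5p its highest level differed from the others in the noise of its control spots. On week 18 high fat replicate 3 the negative controls had an SD of 22.3, against at most 2.53 on the other 19 arrays. Its miR-204-5p probes read 217 ± 15 and 122 ± 15.4. The shorter probe was 0.563 of the longer there, whereas on the other 19 arrays this ratio ran from 0.218 to 0.446 with a median of 0.338. This array and week 30 high fat replicate 2 were nearly the same in the other miRNAs present on all arrays. miR-204-5p differed by 1.41 (week 18 minus week 30), at 4.91 on the week 30 array and 6.32 on the week 18 array. That was the largest difference of the 192 miRNAs toward the week 18 array, ahead of miR-30c-1-3p at 0.54, named after its value was seen. miR-211-5p is not among the 192, and it stood at 6.51 on the week 18 array and at the floor of 3.0 on the week 30 array. Of the 48 dimmest of the 192, 7 were higher on the week 18 array, and their median difference was -0.17. Whether the control noise plays a part in the high miR-204-5p reading was not tested.

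**Figure D3:**
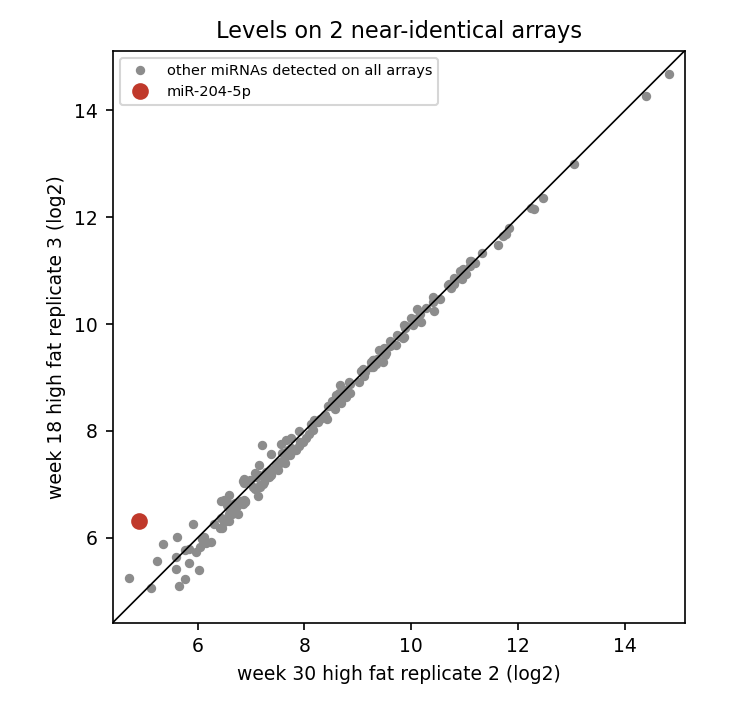
Levels (scaled signal, log2) of the 192 miRNAs present on all arrays, on week 18 high fat replicate 3 (vertical axis) against week 30 high fat replicate 2 (horizontal axis), with the line of equal levels. The grey points follow the line, and miR-204-5p (red) lies above it, at 4.91 on the week 30 array and 6.32 on the week 18 array. miR-211-5p was not detected on all arrays and is not shown.

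The opposite arm of the same hairpin, miR-204-3p, the strand that is usually degraded, did not mirror miR-204-5p. Per the array flags it was detected on 3 of 20 arrays, week 18 high fat replicate 1 (level 3.35) and week 30 high fat replicates 2 and 3 (3.59 and 3.75), and stood at or next to the floor of 3.0 on the rest. It was detected on 0 of 3 arrays in week 30 chow. In week 30 high fat it was detected on 2 of 3, and those 2 may be repeat measurements of 1 RNA. It was too rarely detected to be tested, and no fold is given because the high fat mean (3.45) lies under the mean detection limit of the week 30 chow arrays, whose own limits were 3.38, 3.93 and 3.60.

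miR-211-5p, the family member from Trpm1, was at the edge of detection, on 10 of 20 arrays. None of the 3 week 30 high fat arrays had it well above background (levels of 3.14, 3.0 and 3.0, the last 2 at the floor). It was detected on all 3 week 30 chow arrays (3.72, 4.88 and 3.58). The measured means were 3.05 ± 0.08 in high fat and 4.06 ± 0.71 in chow (SD, n = 3 each). With high fat set at the mean of its arrays' dimmest signals scored well above background, it would be 1.11-fold lower than chow. That is not a firm bound, because on replicate 1 this dimmest signal (5.19) lay above all 3 chow levels. miR-211-5p did not pass in limma's test over all 609 miRNAs (adjusted p = 0.332). With the slide as a block, the difference was -4.35 (limma, adjusted p = 0.00823). That block rests on week 18 high fat replicate 3, where miR-211-5p stood at 6.51 while the other 19 arrays lay between 3.0 and 4.88.

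In the other groups miR-211-5p was detected on 2 of 3 arrays in week 6 high fat, 1 of 3 in week 18 high fat, 3 of 3 in week 6 chow, 1 of 3 in week 18 chow and 0 of 2 in week 0 chow. Its measured mean was higher in week 6 chow (4.57 ± 0.11, SD, n = 3) than in week 0 chow (3.10 ± 0.14, SD, n = 2). At this step miR-204-5p differed by -0.06. With week 0 set at its arrays' dimmest signals scored well above background, miR-211-5p would differ 1.70-fold, which is not a firm bound either. At week 6 its diet difference was -0.59 (SE 0.66, adjusted p = 0.821) and at week 18 it was 1.05 (SE 0.66, adjusted p = 0.952) by limma, the second turning to -0.06 without week 18 high fat replicate 3. Like miR-204-5p it was low in week 30 high fat and high on week 18 high fat replicate 3, and probes of equal length for the 2 miRNAs differ at a single base. Unlike miR-204-5p, it was about as low in week 0 chow (3.10) and in week 18 chow (3.24 ± 0.34, SD, n = 3).

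miR-211-3p, the opposite arm of miR-211, was bright on all 20 arrays and ran the other way. It had levels of 9.89, 10.18 and 10.37 in week 30 high fat, against 8.67, 9.05 and 9.0 in week 30 chow, with no overlap. The difference was 1.24 (SE 0.57) and did not pass by limma (adjusted p = 0.275). At weeks 6 and 18 its arrays overlapped between the diets, with differences of 0.41 (SE 0.57) and 0.85 (SE 0.57). The highest level, 11.12, was that of the array labelled week 18 high fat replicate 1, and the week 18 difference was 0.14 by the described slide positions. In week 30 high fat, then, the 5p arms of the family were low, with miR-211-5p overlapping week 0 chow. The 3p arms were at the high end of their range on at least 2 of 3 arrays, replicates 2 and 3, which may be 1 RNA. Neither tested miR-211 arm passed.

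**Figure D4:**
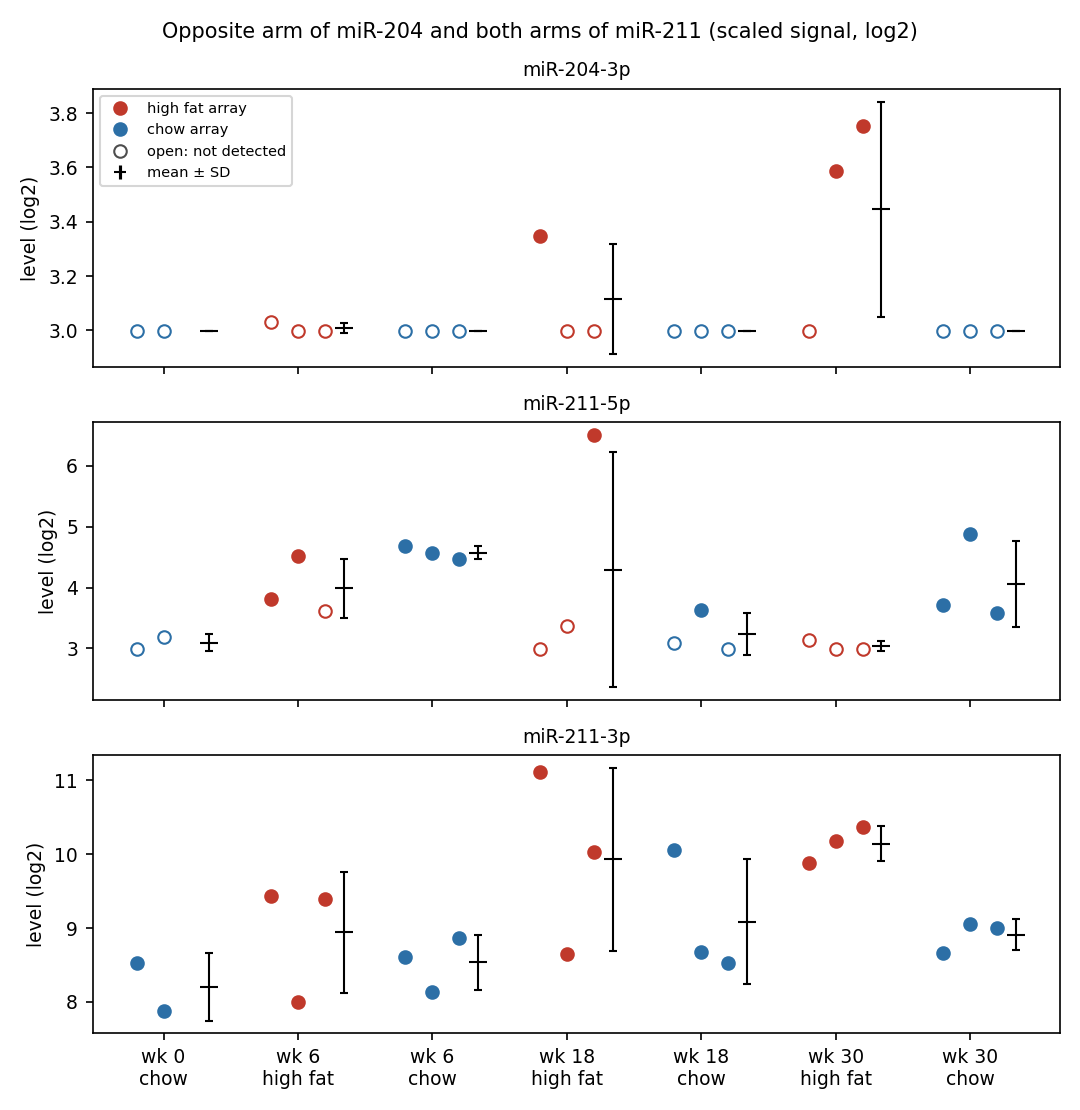
Levels (scaled signal, log2) of miR-204-3p, miR-211-5p and miR-211-3p on each array by group, with high fat in red, chow in blue, open symbols where the miRNA was not detected, and the mean ± SD in black. In week 30 high fat, miR-211-5p is not detected on any array, and miR-211-3p (9.89 to 10.37) lies above week 30 chow (8.67 to 9.05).

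A list of other miRNAs known to repress Runx2, which does not hold all such miRNAs, was set beside miR-204-5p. Of its 10 on the array, 7 were detected on every array of a group and tested, miR-34c-5p was detected on 6 arrays, and miR-135a-5p and miR-217-5p on none. None of the 7 passed at any week between the diets or from week 6 to week 30 in high fat or chow (limma, adjusted over 609), and the share of all tested miRNAs that passed was 2.96% for diet at week 6, 0% for diet at week 18, 0% for diet at week 30, 0.328% in high fat over time and 6.4% in chow over time. At an unadjusted p under 0.05, 109 of the 609 stood out between the diets at week 30 and 7 at week 18. At week 30, 5 of the 7 were lower in high fat, with a median difference of -0.16 against -0.13 over all miRNAs.

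miR-338-3p, a miRNA of bone-forming cells and nerve sheath, came nearest. Its levels ran from 3.91 to 5.54 in week 30 high fat and from 6.02 to 6.89 in week 30 chow, without overlap. The difference was -1.47 (SE 0.66, adjusted p = 0.263), and against week 6 in high fat it was -2.04 (SE 0.66, adjusted p = 0.0611). In high fat over time, 218 of the 609 had an unadjusted p under 0.05 by limma, and the median difference of all was -0.40. miR-218-5p differed by -0.54 (SE 0.64) between the diets at week 30, miR-133a-3p, a striated muscle miRNA, by 0.75 (SE 1.01) and miR-205-5p, an epithelial miRNA, by -1.18 (SE 1.52), all with overlapping arrays. A further repressor of Runx2, miR-30b-5p, is not among these 7 and is given with the calcification miRNAs.

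miRNAs linked to calcification of smooth muscle had 11 of the 12 listed on the array and 10 tested, with miR-32-5p detected on none. None passed in any of the 5 comparisons. At week 30, 8 of the 10 were lower in high fat, with a median of -0.39 against -0.13 over all. Their summed level lay between 12.90 and 13.01 in week 30 high fat and between 13.14 and 13.36 in week 30 chow, without overlap. Among all tested single miRNAs, 25.6% lay wholly below and 28.6% wholly above chow there, so this is not a result about the list. The sum is weighted toward bright members such as miR-29a-3p, with means of 11.23 in high fat and 11.63 in chow. miR-30b-5p, which also represses Runx2, ran from 6.92 to 8.84 in week 30 high fat and from 9.18 to 9.46 in week 30 chow, a difference of -1.13 (SE 0.57, adjusted p = 0.284). miR-223-3p, a myeloid miRNA, ran from 6.47 to 6.86 in week 30 high fat and from 7.08 to 7.72 in week 30 chow, a difference of -0.64 (SE 0.55, adjusted p = 0.422). miR-145a-5p, the contractile smooth muscle miRNA, ran the other way, from 9.28 to 9.75 in week 30 high fat and from 8.78 to 8.81 in week 30 chow, at 0.66 (SE 0.35, adjusted p = 0.288). Of the 3 smooth muscle markers tested, 1 was higher and 2 were lower in week 30 high fat. One of the lower, miR-143-3p, had means of 10.10 in week 30 high fat and 10.48 in week 30 chow, with overlap. miR-155-5p, an inflammatory miRNA, differed by 0.47 (SE 0.96), with overlap.

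The markers of cells that the tissue could hold were set beside miR-204-5p. The smooth muscle markers miR-145a-5p and miR-143-3p were detected on all 20 arrays, and so were miR-126a-3p of endothelium and the striated muscle miRNAs miR-1a-3p and miR-133a-3p. Other members of these lists were detected on fewer. The smooth muscle miRNA miR-143-5p was detected on 18 arrays and miR-145a-3p on 0, and the endothelial miR-126a-5p on 18. Of striated muscle, miR-206-3p was detected on 18 arrays, miR-208a-3p on 3 and miR-499-5p on 2. The summed smooth muscle level ran from 10.35 to 11.26 in week 30 high fat and from 10.83 to 11.01 in week 30 chow, and the endothelial one from 9.32 to 11.15 in high fat and from 10.85 to 11.93 in chow. The leukocyte sum ran from 7.62 to 8.78 in high fat and from 8.62 to 9.05 in chow, with all 4 markers negative in difference and none passed. These ranges overlapped.

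The ranges of 8 further lists overlapped too. In week 30 high fat and week 30 chow, the summed cartilage markers ran from 10.99 to 11.06 and from 10.78 to 11.10, and the fibroblast markers from 8.76 to 9.72 and from 9.66 to 10.07. For the striated muscle markers, with miR-208b-3p detected on no array, the ranges were 10.69 to 12.05 in high fat and 10.64 to 11.45 in chow. Red cell markers ran from 9.21 to 10.95 in high fat and from 10.88 to 12.22 in chow, and brown fat markers from 11.13 to 12.93 in high fat and from 10.90 to 11.94 in chow. Neuron markers, of which miR-9-5p and miR-124-3p were each detected on 1 of 20 arrays, stayed at 4.58 to 5.06 in high fat and 4.58 to 4.73 in chow. Endocrine pancreas markers reached 5.15 in high fat and 5.85 in chow, and the liver marker miR-122-5p reached 5.26 in high fat and 6.0 in chow.

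For 2 of the 14 marker lists the summed levels did not overlap at week 30. Among single miRNAs, 25.6% lay wholly below and 28.6% wholly above chow there, so this count is not a result about the markers. The sensory epithelium and retina markers (miR-96-5p, miR-182-5p and miR-183-5p), of interest because miR-204-5p is rich in the eye, were at the floor on all 3 week 30 high fat arrays (sum 4.58), against 5.55 to 6.14 in week 30 chow. The kidney or gut epithelium markers summed to between 4.58 and 5.50 in high fat and between 5.65 and 5.82 in chow, with miR-215-5p detected on none. Barrier epithelium markers reached at most 5.62 in week 30 high fat and 10.28 on 1 week 30 chow array, with overlap. None of these markers passed at week 30, and their part in the miR-204-5p difference was not tested.

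Over time in high fat, the only miRNAs that passed among all 609 were a pair of leukocyte markers. miR-142a-3p fell to between 3.06 and 5.97 at week 30, against 8.05 to 11.70 at week 6, and miR-142a-5p to between 3.0 and 3.66, against 6.15 to 9.24. The differences were -5.37 (SE 1.02) and -4.83 (SE 0.95), each with an adjusted p of 0.0251 (limma). Both also fell in chow between these weeks, where miR-204-5p differed by 0.20. The count of called miRNAs in high fat was 0 without scaling and with near-identical arrays of the same group averaged. It was also 0 without any 1 of week 6 high fat replicates 2 and 3 and week 30 high fat replicates 1 and 3. It was 1 without week 30 high fat replicate 2 and 4 without week 18 high fat replicate 3. It was 143 without week 6 high fat replicate 1, 130 and 78 without week 18 chow replicates 1 and 2, and 64 and 73 without week 18 high fat replicates 1 and 2.

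The miRNAs whose levels ran most like miR-204-5p over the 20 arrays were found by Pearson's r among the 191 others present on all arrays. The arrays share groups, slides and the scaling, so r is a description. The 8 highest were miR-199b-5p (0.61), miR-195a-5p (0.55), miR-30b-5p (0.55), miR-199a-3p (0.53), miR-26b-5p (0.52), miR-29c-3p (0.51), let-7f-5p (0.51) and let-7g-5p (0.50), against a median of -0.22 over the 191. For miR-199b-5p, a fibroblast and smooth muscle miRNA, r was 0.48 for deviations from the group means and 0.80 without week 18 high fat replicate 3. It had a level of 7.18 ± 0.17 in week 30 high fat and 8.52 ± 0.53 in week 30 chow (SD, n = 3 each), a difference of -1.34 (SE 0.47, adjusted p = 0.168).

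All 8 were lower in week 30 high fat than in week 30 chow, from -1.0 for miR-29c-3p to -1.71 for miR-195a-5p, and none passed by limma. The 8 were chosen for their likeness to miR-204-5p, so this direction is part of the choice. At the other end were miR-7226-5p (-0.56), miR-320-3p (-0.54) and miR-7222-3p (-0.52), which were higher in week 30 high fat by 1.66, 1.51 and 1.05 and did not pass. Their r was -0.73, -0.72 and -0.63 without week 18 high fat replicate 3. It was -0.22, -0.04 and -0.37 with quantile normalization and 0.03, 0.14 and -0.15 with the percentile over all miRNAs. The likeness list was unstable: 3 of the 8 stayed among the 8 highest without week 18 high fat replicate 3 and 1 did after quantile normalization.

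How far the week 30 high fat arrays stood apart depended on the scaling between arrays. They stayed below all 3 week 30 chow arrays under each of 7 ways of scaling or summarising the signal. Of the other 17 arrays, 0 were at or below the highest week 30 high fat array as reported, with quantile normalization, with normexp and with the brightest probe. Here normexp is a model-based background correction that adds 50 to each signal, followed by quantile normalization. The number was 1 with the scanner software's total gene signal, 3 with the percentile over all miRNAs and 7 without scaling. The direction at week 30 held throughout, from -0.37 with normexp to -1.61 with the slide as a block. The 50 added by normexp narrows the log2 differences of dim miRNAs, so -0.37 cannot be compared in size with the others.

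**Figure D5:**
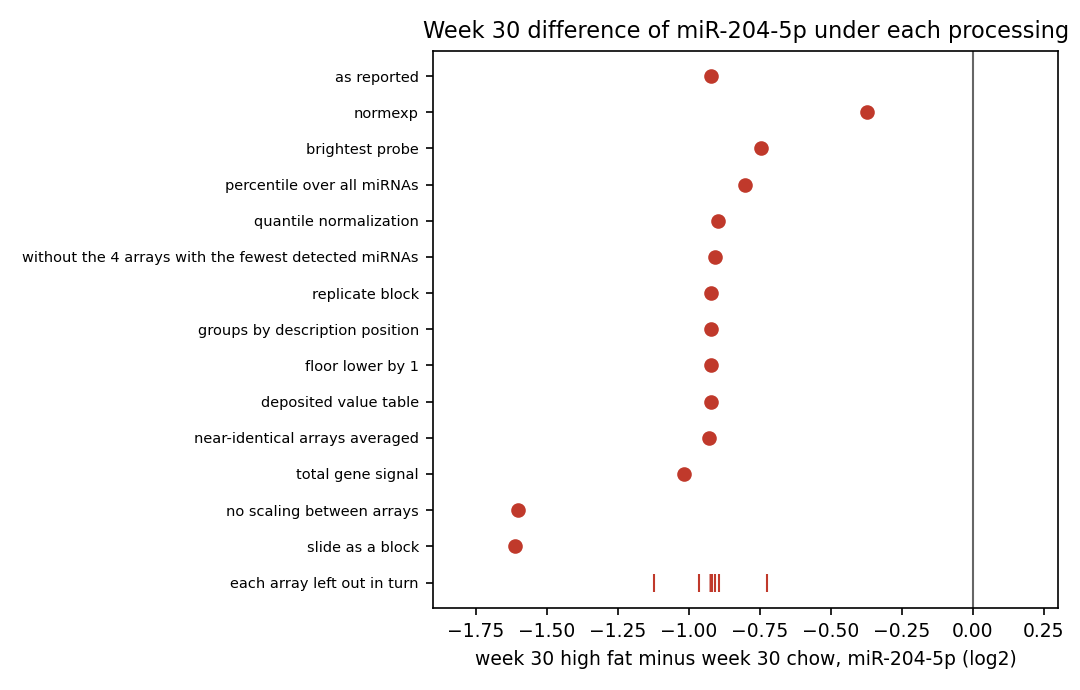
Difference in miR-204-5p level between week 30 high fat and week 30 chow (log2, horizontal axis) under each processing, with the values obtained by leaving out each array in turn on the bottom line and 0 as a vertical line. All values lie below 0, with normexp at -0.37, no scaling at -1.60 and the slide as a block at -1.61.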

How the data were processed

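The authors deposited linear spot intensities. Agilent Feature Extraction 11.5.1 made them, as the submitters' processing notes say, with background subtraction and without scaling across arrays, per the file headers. Their value table gave the same intensity for all 20 arrays (relative tolerance 0.0001). Probe positions are of build mm9. No spot was saturated (0). After removal of controls and of 1422 to 2287 outlier spots an array, the spots of a probe were averaged, then the probes of a miRNA. A miRNA was detected where at least 0.5 of the spots of 1 probe were well above background. Each array was scaled by the 75th percentile of those 192 miRNAs that every array detected, a floor of 3.00 (the lowest scaled signal well above background on any array) was set, and log2 was taken. A total gene signal and quantile normalization are among the alternatives.

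The 609 miRNAs detected on every array of a group were fitted with limma 3.58.1 (R 4.3.3, lmFit and eBayes, 7 groups, 13 residual degrees of freedom, 2-sided, Benjamini-Hochberg at 0.05). The labels name replicates but not animals, so p-values reflect only the spread among these samples, which may be technical. With 2 or 3 arrays a group, the number of arrays limits the precision. The calculation was tested on simulated data.

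Replicate numbers from the labels counted as pairs where the deviations of every same-numbered pair correlated above 0.1. This held only between the diets at week 30 (0.26, 0.19 and 0.13). The SEs and p-values of named miRNAs nevertheless come from the fit without pairs, at week 30 too. The replicate block among the alternatives fits the replicate numbers over the later weeks together, not at week 30 alone. At week 18 the third pair was at 0.049 beside 0.63 and 0.68, and the other comparisons had at least 1 negative pair. The miRNA and the lists were chosen with earlier results of these data known. Named miRNAs are the family, the 4 members of each of the Runx2 and calcification lists with the smallest p, the 8 highest and 3 lowest correlations, and the cell type markers. The marker lists were smooth muscle, endothelium, leukocyte, cartilage, fibroblast, striated muscle, red cell, brown fat, neuron, kidney or gut epithelium, barrier epithelium, sensory epithelium and retina, endocrine pancreas and liver.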

Additional observations from a re-analysis of the deposited data

How the results depend on the processing

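The miR-204-5p difference at week 30 stayed negative in all settings, some of which could not change it. It was -1.60 without scaling, -0.37 with normexp and -1.61 with a slide block set by week 18 high fat replicate 3 alone, and lay between -1.12 and -0.72 when each array was left out. Without scaling the difference was 1.31 at week 18, 1.09 for chow from week 6 to 30 and 1.19 for high fat from week 6 to 18. With the percentile over all miRNAs it was 0.40 at week 6, -0.22 at week 18, 0.54 for chow over time and 0.082 for high fat from week 6 to 18. With quantile normalization it was 0.28 at week 6, -0.025 at week 18 and 0.59 for chow over time. It was -0.067 at week 18 without the 4 arrays with the fewest miRNAs, a setting chosen after seeing the data, and -0.25 for high fat from week 6 to 30 with normexp. Leaving out each array gave -0.27 to 0.09 at week 6, 0.05 to 0.52 at week 18, -0.81 to -0.45 for high fat from week 6 to 30, 0.003 to 0.40 for chow over time and 0.17 to 0.63 for high fat from week 6 to 18. The signs at weeks 6 and 18 are therefore not settled. Apart from the narrowing that the normexp offset of 50 brings, the causes of these shifts were not tested.

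Counts of miRNAs called moved widely. Between the diets at week 6 (18) there were 8 with a lower floor, 6 with near-identical arrays averaged, 3 without scaling, 8 with normexp, 0 among those detected on all arrays, 7 with the percentile over all and 9 with quantile normalization, and 8 to 26 with an array left out. At week 18 there were 0 in each setting. At week 30 (0) there were 9 without a filter and 1 with the slide as a block, and 0 with any array left out. In high fat from week 6 to 30 (2) there were 55 with the brightest probe, 1 with a lower floor, 0 averaged, 9 without a filter, 0 without scaling, 84 with normexp, 0 among those detected on all arrays, 14 with the percentile over all, 65 with quantile normalization, 0 without the 4 arrays and 0 to 143 with an array left out, 143 being without week 6 high fat replicate 1. In chow (39) there were 16 with a lower floor, 14 averaged, 6 without scaling, 22 with normexp, 2 among those detected on all arrays, 16 with the percentile over all, 20 with quantile normalization, 110 without the 4 arrays and 20 to 56 with an array left out. The replicate block gave 79 in high fat over time and left 0 for diet at week 30 and gave 47 in chow, with miR-204-5p itself at -0.92 at week 30. Near the background, signals such as those of miR-204-5p and miR-211-5p leave the size of a difference uncertain. Taking groups from the described slide positions left the week 30 values as they were.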
